A study of Mus musculus with 16 samples.

Results

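Expression of the 5 uroplakin genes and of 5 genes that mark or direct the differentiation of umbrella cells was followed in the bladder body of ageing mice. The 10 genes were Upk1a, Upk1b, Upk2, Upk3a, Upk3b, Krt20, Grhl3, Elf3, Foxa1 and Gata3. They were chosen by name, and each was found through the RefSeq accession of its array probe. All 10 had 1 probe each, among the 26781 genes tested. The mice were C57BL/6, and the labels name no transgene or treatment. Age was 12 months in the MAT groups and 27 to 30 months in the AGED groups, and both ages were studied in males and in females (n = 4 in each of the 4 groups). Total RNA of 1 bladder was hybridized to each of 16 1-colour Agilent arrays. The question was whether these genes differed between MAT and AGED mice of either sex.

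The lumen of the bladder is lined by the urothelium, a stratified epithelium with basal, intermediate and superficial (umbrella) cells. Umbrella cells carry rigid plaques in their luminal membrane that limit the passage of urine constituents. The plaques are built of uroplakins. The tetraspanin uroplakin 1a pairs with uroplakin 2, and the tetraspanin uroplakin 1b with uroplakin 3a or 3b. Keratin 20 is an intermediate filament protein of umbrella cells. GRHL3, ELF3, FOXA1 and GATA3 are transcription factors of urothelial differentiation.

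The samples were whole pieces of bladder wall, so that fewer urothelial cells and less RNA of a gene per cell cannot be told apart. All 10 genes were well above background on 16 of 16 arrays, as were Krt5 and Krt15 of basal urothelium, Cnn1, Tagln and Acta2 of smooth muscle, and Dcn, Col3a1 and Col1a1 of fibroblasts. The labelled tissue was thus borne out by its own markers. Of the male-gland genes, Pbsn and Svs4 were well above background on 0 arrays and Svs2 and Svs5 on 2 arrays at most, while Hoxb13 was kept and tested. The share of probes well above background was 60.4% to 65.9% on MAT male, 52.3% to 61.2% on AGED male, 64.6% to 68.2% on MAT female and 59.9% to 63.2% on AGED female arrays. AGED male replicate 1 was the dimmest array and AGED female replicate 3 the brightest. All female arrays lay on 1 slide and all male arrays on the other, and on each slide MAT arrays lay in row 1 and AGED arrays in row 2. Sex and slide therefore cannot be told apart, nor can age and row.

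Promoter sequence was examined because 4 of the 10 genes encode factors that bind DNA. RefSeq windows of the 250 bases before an annotated start (GRCm38.p6) were matched for all but Upk1b and Upk2, 8 of the 10 genes. The windows of Foxa1 and Gata3 precede a start that lies inside the span of the gene given with its values. The letters GATAA, which GATA factors bind, were found on either strand in 3 of the 8 windows, those of Upk3a, Upk3b and Krt20, and in 22.6% of 32851 windows of the same length over the whole annotation. Those 3 windows follow, from 5′ to 3′ on the strand of the gene, with capitals for GATAA and AGGAAG and their reverse complements.
Upk3a (chr15:85016891-85017140, + strand): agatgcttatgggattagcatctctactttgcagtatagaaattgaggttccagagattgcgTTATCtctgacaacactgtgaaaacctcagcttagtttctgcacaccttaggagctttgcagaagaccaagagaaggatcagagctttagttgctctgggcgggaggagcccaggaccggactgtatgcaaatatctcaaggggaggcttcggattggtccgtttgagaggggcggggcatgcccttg
Upk3b (chr5:136038246-136038495, + strand): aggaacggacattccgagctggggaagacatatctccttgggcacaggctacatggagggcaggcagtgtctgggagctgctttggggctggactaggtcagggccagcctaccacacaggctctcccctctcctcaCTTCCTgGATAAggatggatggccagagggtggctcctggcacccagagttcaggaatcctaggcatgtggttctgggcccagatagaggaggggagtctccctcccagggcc
Krt20 (chr11:99438154-99438403, - strand): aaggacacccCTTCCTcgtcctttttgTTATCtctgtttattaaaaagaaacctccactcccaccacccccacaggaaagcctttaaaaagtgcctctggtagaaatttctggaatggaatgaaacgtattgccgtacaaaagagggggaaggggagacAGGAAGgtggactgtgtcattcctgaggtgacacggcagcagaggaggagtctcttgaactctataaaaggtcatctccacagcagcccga
GATAA lay 188 to 184 bases before the start of Upk3a, 106 to 102 before that of Upk3b and 223 to 219 before that of Krt20. The letters AGGAAG, a core of ETS factors such as ELF3, were found in 2 of the 8 windows, those of Upk3b and Krt20, and in 29.5% of all windows. They did not overlap GATAA in either. The forkhead letters TGTTTNC were found in the window of Foxa1 alone (1 of 8, against 17.8% of all windows), and the Grainyhead-like letters AACNNGTT in 0 of 8 (3.64% of all windows). These matches describe letters and not binding.

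None of the 10 genes was called in AGED males or AGED females. A call required a Benjamini-Hochberg adjusted p below 0.05 in limma together with a change of 2-fold or more. By that rule 0.848% of all genes were called in males and 0.187% in females. In males, 4 of the 10 genes had a higher and 6 a lower mean in AGED mice, with a median log2 change of -0.12 (0.001 over all genes). Only Upk2 had an unadjusted p below 0.05 in males, as had 16.3% of all genes. In females, 7 were higher and 3 lower, with a median log2 change of 0.16 (-0.003 over all genes). None had an unadjusted p below 0.05 in females, where 10.5% of all genes did. When arrays were centred on general epithelial genes, which moves all genes of an array alike, the median of the 10 in females was -0.04 and that of all genes -0.20. The 95% interval of the change lay within 2-fold for 10 of 10 genes in each sex. Its outermost bounds were -0.89 and 0.73 on the log2 scale in males and -0.64 and 0.78 in females. Before the correction for trends across the array, described with Upk3a and Upk3b, it lay within 2-fold for 8 of 10 genes in males, where Upk3a and Upk3b reached beyond it and the lowest bound was -1.31, and for 9 of 10 in females, where Upk3b reached 1.11. With the 75th percentile of the processed signal as the scale, none of the 10 had an adjusted p below 0.05 for age in either sex. That level was reached without the fold limit by 469 of all genes in males and 61 in females. Changes of the 10 genes smaller than 2-fold were thus neither shown nor excluded with 4 arrays a group. Signals are given as log2 values with the 75th percentile of the array set to 0, which compare arrays but not genes.

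**Figure D1:**
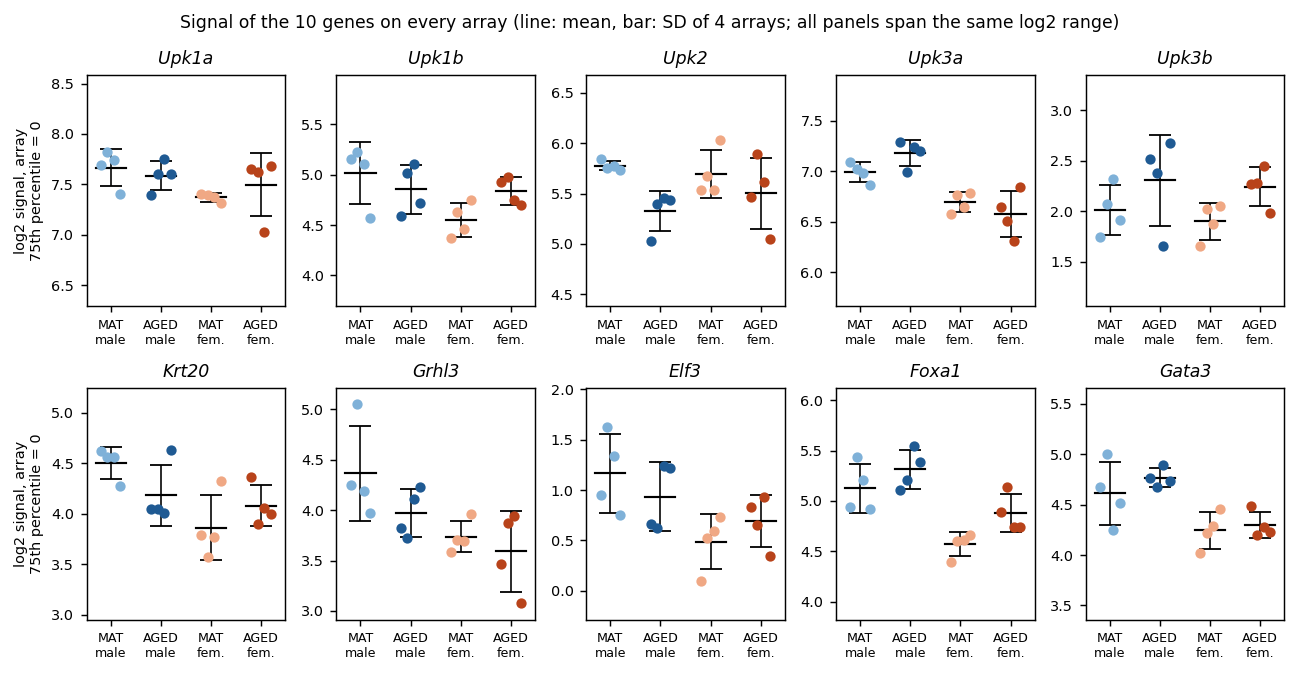
Log2 signal (75th percentile of the array = 0) of the 10 genes on every array, with 4 points a group in replicate order, a line for the mean and bars for the SD. On this processed signal the 4 AGED males lie below the 4 MAT males for Upk2 and the 4 AGED females above the 4 MAT females for Foxa1, and the other genes overlap between ages in both sexes.

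Of the plaque proteins, Upk2 (chr9:44452715-44454767), the partner of uroplakin 1a, showed the largest fitted age change in males on the processed signal. Its log2 signal was 5.84, 5.76, 5.78 and 5.74 in MAT males and 5.03, 5.39, 5.45 and 5.44 in AGED males. On the processed signal every AGED male was below every MAT male, which held in the same direction for 4.06% of all genes. The change was -0.45 (standard error 0.17), or 1.37-fold lower, with an adjusted p of 0.206 in limma and an exact two-sided permutation p of 0.0286, the smallest that 4 against 4 arrays can give. It did not pass the adjusted threshold. With arrays centred on general epithelial genes it was -0.61 (adjusted p = 0.0442 in limma), still short of 2-fold. That centring moves all genes of an array alike, and the median of all genes in males was then -0.155. In females Upk2 was 5.54, 5.67, 5.54 and 6.04 in MAT and 5.47, 5.89, 5.62 and 5.05 in AGED mice. These overlapped, with a change of -0.19 (standard error 0.17, adjusted p = 0.760 in limma), or -0.04 without AGED female replicate 4 and -0.32 without AGED female replicate 2. The male change was -0.18 before Feature Extraction's correction for trends across the array, which multiplied the Upk2 signal by 0.831 to 0.843 on the 4 AGED male arrays and by 0.878 to 1.09 on the 4 MAT male arrays. The unscaled signal before it was 55470 on MAT male replicate 4, below the 60270, 59250 and 57610 of AGED male replicates 2, 3 and 4. The separation of the groups and the exact p are thus those of the processed signal. Before that correction the male changes of Upk3b (-0.39) and Upk3a (-0.31) were larger than that of Upk2. AGED male replicate 1 had the lowest Upk2 value, and the Upk2 change without it was -0.35.

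Upk1a (chr7:30603092-30612734) encodes the tetraspanin that pairs with uroplakin 2, and its fitted change in males was the smallest of the plaque proteins. The arrays gave log2 signals of 7.69, 7.82, 7.74 and 7.40 in MAT males and 7.40, 7.60, 7.75 and 7.60 in AGED males. In females it was 7.41, 7.40, 7.37 and 7.31 in MAT mice and 7.66, 7.62, 7.03 and 7.68 in AGED mice. The MAT females lay close together and the AGED females spread on both sides of them, with replicate 3 low and the other 3 high. AGED female replicate 3 was the brightest array, with a log2 75th percentile of 11.06 against 10.04 to 10.41 on the other AGED females. Its processed Upk1a signal before scaling was 278700, against 274200, 268500 and 215400 on AGED female replicates 1, 2 and 4. The part of the scaling in its low value was not tested. The change was -0.08 (standard error 0.15) in males and 0.12 (standard error 0.15) in females, or 0.28 in females without AGED replicate 3 and 0.06 without AGED replicate 4. In males it ranged from -0.17 (without MAT male replicate 4) to -0.01 (without AGED male replicate 1). The adjusted p was 0.824 in males and 0.836 in females in limma. The sign in males turned before the trend correction (0.04).

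Upk1b (chr16:38773182-38800203), the tetraspanin that pairs with uroplakins 3a and 3b, was printed as 10 spots on each array. Log2 signals were 5.16, 5.23, 5.11 and 4.57 in MAT males and 4.59, 5.01, 5.10 and 4.71 in AGED males. Female arrays gave 4.37, 4.63, 4.46 and 4.75 in MAT mice and 4.93, 4.98, 4.75 and 4.70 in AGED mice. The groups overlapped in both sexes, and MAT male replicate 4 was the lowest of its group. The change was -0.16 (standard error 0.16, adjusted p = 0.656 in limma) in males and 0.29 (standard error 0.16, adjusted p = 0.573) in females. In males it was -0.31 without MAT male replicate 4 and -0.07 without AGED male replicate 1. The difference of these changes did not pass the test (-0.44, standard error 0.23, adjusted p = 0.561).

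Upk3a (chr15:85017141-85022560) encodes a single-pass partner of uroplakin 1b. Its log2 signal was 7.10, 7.03, 6.98 and 6.87 in MAT males and 7.29, 7.0, 7.24 and 7.20 in AGED males. The females had 6.58, 6.76, 6.65 and 6.78 in MAT mice and 6.65, 6.50, 6.31 and 6.85 in AGED mice. The AGED males were mostly above the MAT males, with overlap through AGED replicate 2, and the female groups overlapped fully. The change was 0.19 (standard error 0.12, adjusted p = 0.467 in limma) in males and -0.12 (standard error 0.12, adjusted p = 0.811) in females, where it was -0.03 without AGED female replicate 3 and -0.21 without AGED female replicate 4. On the processed signal Upk3a had the smallest spread among replicates of the 10, with a pooled SD of 0.15 against a median of 0.30 over all genes. Before the trend correction the standard error of its male change was 0.33, against 0.12 after it.

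Upk3b (chr5:136038496-136044993) encodes the alternative partner of uroplakin 1b and is known in mesothelium as well as in urothelium. The log2 signal read 1.74, 2.07, 2.32 and 1.91 in MAT males and 2.51, 2.38, 1.65 and 2.68 in AGED males. In females it was 1.65, 2.02, 1.87 and 2.05 in MAT mice and 2.27, 2.28, 2.45 and 1.98 in AGED mice. AGED males were the most spread, with replicate 3 below all MAT males and the other 3 above them. In females only AGED replicate 4 reached into the MAT range. The change was 0.29 (standard error 0.20, adjusted p = 0.489 in limma) in males, 0.51 without AGED male replicate 3 and 0.17 without AGED male replicate 4. It was 0.34 (standard error 0.20, adjusted p = 0.586) in females.

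The male values of Upk3a and Upk3b depended on the correction that Feature Extraction makes for trends across the array surface. Their spots lay near the edge, in rows 370 and 383 of 384. The ratio of the processed to the background-subtracted signal of the Upk3a spot was 2.65 and 2.64 on AGED male replicates 3 and 4, with a median of 0.98 over the 16 arrays. For Upk3b it was 3.11 and 3.04 on the same 2 arrays, also with a median of 0.98. For Upk3a this took a background-subtracted signal of 64730 on replicate 3 to a processed signal of 171500, and 62240 on replicate 4 to 164500. Before the correction, the male age change was -0.31 (standard error 0.33) for Upk3a and -0.39 (standard error 0.43) for Upk3b, the opposite sign for both. The female changes also moved, without turning sign, to -0.27 for Upk3a and 0.19 for Upk3b. With normexp and quantile normalization, which also starts from signals without this correction, these female changes were -0.40 and 0.14. Elf3 had a ratio of 1.84 and Foxa1 of 1.58 on AGED male replicate 1, and the other genes stayed between 0.82 and 1.19 on every array. Ratios above 2 were found for 4.82%, 6.44% and 5.96% of spots with a signal of at least 100 on AGED male replicates 2, 3 and 4, for 2.75% and 1.23% on MAT male replicates 4 and 2, for 0.947% on AGED male replicate 1, for 0.0104% on MAT male replicate 1, and for 0% on MAT male replicate 3 and every female array.

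**Figure D2:**
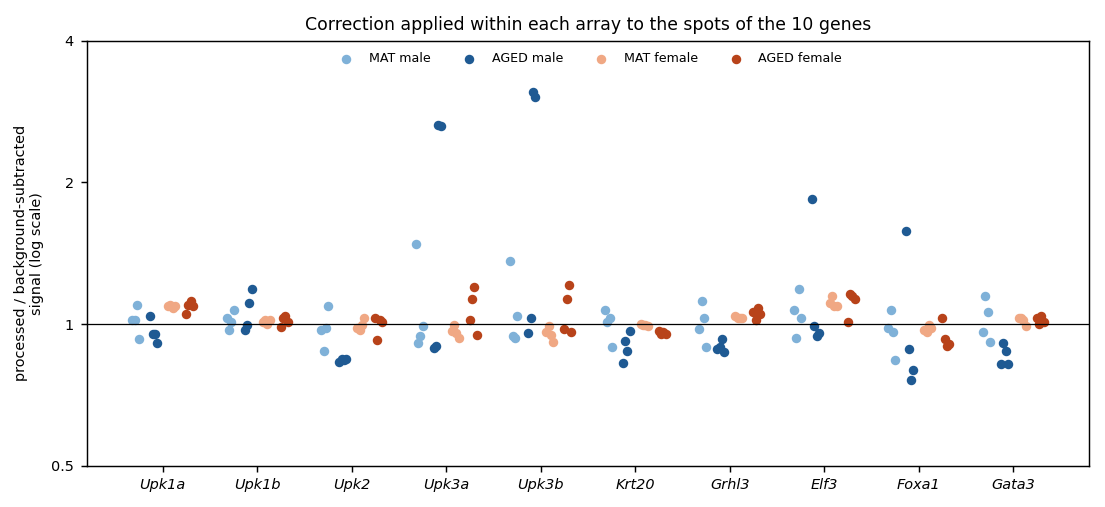
Ratio of processed to background-subtracted signal (log axis) for the spots of the 10 genes, with 1 point per array coloured by group. Upk3a and Upk3b stand at 2.64 to 3.11 on AGED male replicates 3 and 4, while most other points lie close to 1.

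Krt20 (chr11:99428385-99438153), the umbrella cell keratin, had fitted changes of opposite sign in the sexes, neither of which passed the test. Signals on the log2 scale were 4.62, 4.56, 4.56 and 4.27 in MAT males and 4.04, 4.05, 4.00 and 4.63 in AGED males. Values in females were 3.79, 3.57, 3.77 and 4.33 in MAT mice and 4.37, 3.89, 4.06 and 4.00 in AGED mice. In males, 3 of 4 AGED arrays were below all MAT arrays and AGED replicate 4 was above them all. The change was -0.32 (standard error 0.18, adjusted p = 0.396 in limma) in males, or -0.47 (adjusted p = 0.190) without AGED male replicate 4. Before the trend correction it was -0.12 in males, and with normexp and the 75th percentile -0.14. It was 0.22 (standard error 0.18, adjusted p = 0.738) in females, with a range of 0.12 (without MAT female replicate 2) to 0.37 (without MAT female replicate 4) when 1 array was left out. The male change less the female change was -0.54 (standard error 0.26, adjusted p = 0.512).

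Among the transcription factors, Grhl3 (chr4:135541887-135573632) was the most variable gene of the 10 on the processed signal. It encodes a Grainyhead-like factor needed for umbrella cell differentiation. Its log2 signal was 4.24, 5.05, 4.19 and 3.97 in MAT males and 3.83, 3.72, 4.11 and 4.23 in AGED males. Female values were 3.59, 3.71, 3.70 and 3.96 in MAT mice and 3.47, 3.87, 3.94 and 3.08 in AGED mice. MAT male replicate 2 was the highest of all 16 arrays and AGED female replicate 4 the lowest. The change was -0.39 (standard error 0.23, adjusted p = 0.416 in limma) in males and -0.15 (standard error 0.23, adjusted p = 0.892) in females. In males it was -0.19 before the trend correction, -0.26 and -0.23 with normexp under quantile and 75th percentile scaling, and -0.16 without MAT male replicate 2. It was 0.02 in females without AGED female replicate 4.

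Elf3 (chr1:135253574-135258472), an epithelial ETS factor, had overlapping ages in both sexes. Log2 values of its probe were 0.95, 1.63, 1.34 and 0.75 in MAT males and 0.66, 0.62, 1.24 and 1.22 in AGED males. In females it was 0.10, 0.53, 0.59 and 0.74 in MAT mice and 0.83, 0.65, 0.93 and 0.34 in AGED mice. The change was -0.23 (standard error 0.22, adjusted p = 0.626 in limma) in males and 0.20 (standard error 0.22, adjusted p = 0.814) in females. With 1 array left out it ranged in males from -0.37 (without MAT male replicate 4) to -0.08 (without MAT male replicate 2), and in females from 0.07 (without MAT female replicate 1) to 0.32 (without AGED female replicate 4).

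Foxa1 (chr12:57540628-57548029), a pioneer factor of the forkhead family, had fitted changes above 0 in both sexes, neither past the adjusted threshold. Female arrays showed 4.40, 4.60, 4.61 and 4.67 in MAT mice and 4.89, 5.14, 4.74 and 4.74 in AGED mice. Every AGED female was above every MAT female, which held in the same direction for 5.02% of all genes. The change in females was 0.31 (standard error 0.15), or 1.24-fold, with an adjusted p of 0.476 in limma and an exact two-sided permutation p of 0.0286. In males Foxa1 was 4.94, 5.43, 5.21 and 4.92 in MAT mice and 5.11, 5.21, 5.55 and 5.38 in AGED mice. The male groups overlapped, with a change of 0.19 (standard error 0.15, adjusted p = 0.545), or 0.11 with AGED male replicate 3 left out and 0.29 with MAT male replicate 2 left out.

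Gata3 (chr2:9857078-9887953), a zinc-finger factor that is a routine marker of urothelium, had overlapping ages in both sexes. The probe gave log2 signals of 4.68, 5.0, 4.25 and 4.52 in MAT males and 4.76, 4.68, 4.90 and 4.73 in AGED males. The female values were 4.02, 4.21, 4.29 and 4.46 in MAT mice and 4.49, 4.20, 4.28 and 4.23 in AGED mice. The AGED males lay within the MAT range. The change was 0.16 (standard error 0.15, adjusted p = 0.631 in limma) in males and 0.06 (standard error 0.15, adjusted p = 0.946) in females. In males it was 0.45 (adjusted p = 0.0857) before the trend correction, 0.03 with MAT male replicate 3 left out and 0.28 with MAT male replicate 2 left out. With 1 array left out it lay in females between -0.02 (without MAT female replicate 1) and 0.13 (without MAT female replicate 4), and its sign turned in 5 of 37 alternatives.

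For none of the 10 genes did the difference of the age change between the sexes reach an adjusted p below 0.05, a level that 0.149% of all genes reached. None had an unadjusted p below 0.05 for this difference, where 9.88% of all genes did. The male change was below the female change for 8 of the 10, but for 2 of the 10 the interval of the difference reached beyond 2-fold. Averaged over the sexes, none of the 10 was called (0.299% of all genes were). Upk2 (-0.32, adjusted p = 0.188 in limma), Upk3b (0.32, adjusted p = 0.259) and Foxa1 (0.25, adjusted p = 0.228) had an unadjusted p below 0.05, as had 17.9% of all genes. For Upk3b that average includes the strongly corrected spots of AGED male replicates 3 and 4. Before the trend correction its changes had opposite signs, -0.39 in males and 0.19 in females. Only 1 of the 10 then had an unadjusted p below 0.05 for the average. The same count was found with quantile normalization, with median scaling and with normexp under either scaling.

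**Figure D3:**
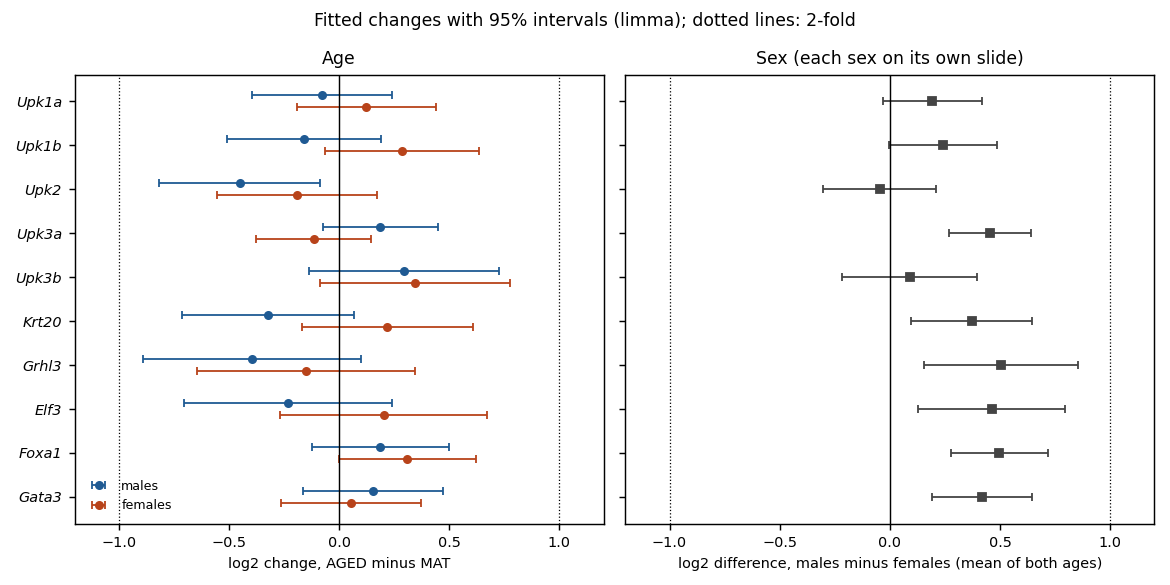
Fitted log2 differences of the 10 genes with 95% intervals from limma, for AGED minus MAT in males and in females (left) and for males minus females averaged over age (right), with dotted lines at 2-fold. The age intervals stay inside the dotted lines, and the sex differences lie above 0 for 9 of 10 genes.

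The 10 genes were also compared between the male and the female slide. Averaged over age, 9 of the 10 were higher in males, with a median log2 difference of 0.40, whereas 61.1% of all genes were higher in males with a median of 0.08. None reached 2-fold and none was called (1.78% of all genes were). Without the fold limit, Upk3a, Foxa1 and Gata3 were higher in males at an adjusted p below 0.05, a level that 8.39% of all genes reached in that direction. Upk3a was 0.45 higher (standard error 0.09, adjusted p = 0.00597 in limma), and its lowest male array, at 6.87, was above its highest female array, at 6.85, as held for 1.35% of all genes. Foxa1 was 0.50 higher (standard error 0.10, adjusted p = 0.00859) and Gata3 0.42 higher (standard error 0.11, adjusted p = 0.0207), each with some overlap between the sexes. Grhl3 (0.50, adjusted p = 0.0577), Elf3 (0.46, adjusted p = 0.0652) and Krt20 (0.37, adjusted p = 0.0703) were similar in size but did not pass. The adjusted p was 0.0409 for Grhl3 without MAT male replicate 4, 0.0399 for Elf3 without AGED male replicate 1 and 0.0304 for Krt20 without MAT female replicate 4. Upk1a (0.19), Upk1b (0.24) and Upk3b (0.09) did not pass either, and Upk2 was -0.05. With 1 array left out, Upk3b was 0.03 without AGED male replicate 4 and 0.20 without AGED male replicate 3, Upk1a was 0.11 without AGED female replicate 3, and Upk2 lay between -0.12 (without AGED female replicate 4) and 0.02 (without AGED female replicate 2).

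The sex differences depended on the scale. Before the trend correction the Upk3a difference was 0.15 (adjusted p = 0.686 in limma), while those of Gata3 (0.57, adjusted p = 0.00359) and Foxa1 (0.53, adjusted p = 0.0428) were below the threshold, as were those of Grhl3 (0.67, adjusted p = 0.00844), Krt20 (0.45, adjusted p = 0.0183) and Upk1a (0.36, adjusted p = 0.0357). With arrays centred on general epithelial genes, the median sex difference was 0.13 for the 10 and -0.18 for all genes (the male age medians were then -0.27 and -0.16), none had an adjusted p below 0.05, and Upk1a, Upk1b and Upk3b turned negative. Centring on smooth muscle genes also ended the passes of Upk3a (adjusted p = 0.0807), Foxa1 (adjusted p = 0.161) and Gata3 (adjusted p = 0.248). Quantile normalization ended those of Upk3a (0.19, adjusted p = 0.111) and Gata3 (0.31, adjusted p = 0.0593), and normexp with quantile normalization that of Foxa1 (0.36, adjusted p = 0.124). With normexp under either scaling the Upk3a difference did not pass (adjusted p = 0.645 and 0.733). Gata3 (adjusted p = 0.00574 and 0.0016) and Grhl3 (adjusted p = 0.017 and 0.0064) were below the threshold with both. Under normexp with the 75th percentile, Krt20 (adjusted p = 0.0138), Upk1a (adjusted p = 0.0293) and Foxa1 (adjusted p = 0.0349) were also below it. Most general epithelial genes were themselves higher in males (9 of 10, median 0.29).

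The other genes of the superficial cell and its vesicles, such as Mal and Rab27b, which act in membrane traffic, had fitted changes mostly above 0. Of 9 tested, 8 were above 0 in males (median log2 change 0.23) and 9 in females (median 0.14), and none was called. In females the median was -0.06 with arrays centred on epithelial genes, where that of all genes was -0.20. The log2 change was 0.13 in males and 0.34 in females for Mal, 0.40 and 0.14 for Rab27b, and 0.22 and 0.001 for Vamp8. None of these passed the test, with a lowest adjusted p of 0.208, for Rab27b in males. The other urothelial regulators showed no common direction, with 4 of 9 higher in males (median -0.03) and 3 of 9 in females (median -0.06), and the male median changed sign with 4 other scalings. None of them was called in this fit, and the changes of Tbx3, Pparg and Klf4, whose probes were the brightest of that list, were -0.23, -0.03 and -0.28 in males and -0.10, -0.008 and 0.18 in females. Before the trend correction Tbx3 (-1.06, adjusted p = 0.00643 in limma) and Klf5 (-1.01, adjusted p = 0.0382), both transcription factors of urothelium, were called lower in AGED males, and both were also called with normexp under either scaling. Normexp also lacks that correction, so its calls are not independent of the former. In these 3 fits 4.65% of all genes before the correction, and 2.91% (quantile) and 2.57% (75th percentile) with normexp, were called lower in AGED males.

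Fitted changes were above 0 for 7 of 10 general epithelial genes in males (median 0.20) and 8 of 10 in females (median 0.25), and for 9 of 10 genes of basal and intermediate urothelium in each sex (medians 0.22 and 0.21). None was called. With arrays centred on the general epithelial genes themselves, the basal medians were 0.06 in males and 0.01 in females, against -0.16 and -0.20 for all genes. For Krt19, a keratin of simple and urothelial epithelium, the change was 0.63 in males (adjusted p = 0.0602 in limma) and 0.30 in females (adjusted p = 0.538). It was 0.32 and 0.28 for Krt18 and 0.07 and 0.26 for Krt7. Among the basal genes it was 0.14 and 0.08 for Krt5, 0.23 and 0.26 for Krt15, and 0.37 and 0.39 for Itga6, an integrin of basal cells. All of these missed the threshold.

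Of the list genes tested, only Krt10 was called for age with the 75th percentile of the processed signal as the scale. Krt10 encodes a keratin of cornified epithelium. Its log2 signal was 0.27, 0.52, 0.26 and 0.27 in MAT males and -0.34, -0.77, -1.34 and -1.58 in AGED males, without overlap. The change in males was -1.34 (standard error 0.21, adjusted p = 0.00541 in limma), and it was 0.13 (adjusted p = 0.90) in females. It was called in 33 of 37 alternatives, and it was -2.02 before the trend correction. That correction multiplied the Krt10 signal by 1.75, 1.29, 1.48 and 1.65 on the AGED male arrays. On the MAT male arrays the factors were 0.956, 0.937, 0.925 and 0.894. Its probes disagreed, since the value of another Krt10 probe was -0.13 in males (adjusted p = 0.755). The other 7 squamous genes tested had no call. The change of Ivl, which encodes a cornified envelope protein, was -0.91 (adjusted p = 0.0640 in limma) in males and 0.62 (adjusted p = 0.367) in females. Ivl was called in males with arrays centred on epithelial genes (-1.06, adjusted p = 0.0278, with 0.948% of all genes called lower) and without AGED male replicate 4 (-1.10). The change of Krt13 was 0.12 and 0.57. Krt6a, Sprr1b and Dsg3 were not kept.

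**Figure D4:**
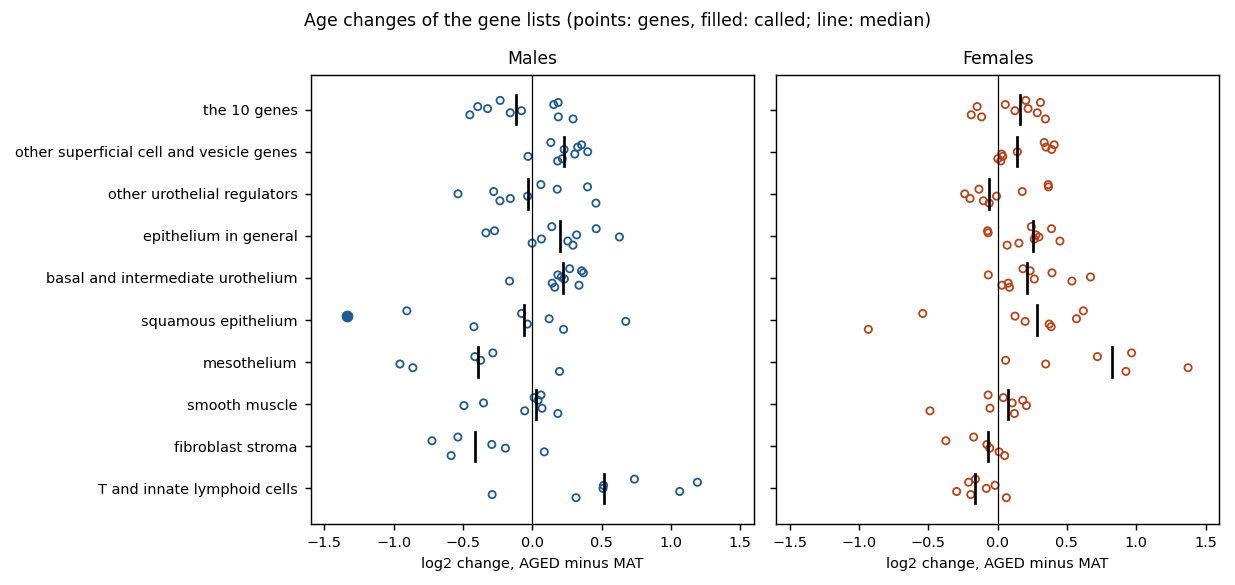
Log2 changes between AGED and MAT mice for each gene of the lists with more than 2 genes tested (circles), in males (left) and females (right), with a line at the median of the list. The only filled circle, a called gene, is Krt10 in males at -1.34, and mesothelial medians lie at -0.39 in males and 0.82 in females.

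Other cells of the bladder wall were measured on the same arrays. Fitted changes of mesothelial genes were below 0 for 5 of 6 in males (median -0.39) and above 0 for 6 of 6 in females (median 0.82), with no call. For Msln, whose probe was the brightest of them, the change was -0.86 (standard error 0.75) in males and 1.37 (standard error 0.75) in females. Lrrn4 and Bnc1 were well above background on 13 and 9 arrays, and Muc16 had no probe. The mean log2 signal of the mesothelial list was -1.70, -1.53, -1.18 and -1.82 in MAT males and -1.30, -2.97, -2.45 and -1.30 in AGED males. It was -2.99, -3.31, -2.59 and -2.77 in MAT females and -3.72, -2.09, -2.05 and -0.89 in AGED females. The part of these cells in the values of Upk1b and Upk3b was not tested. Smooth muscle genes had medians of 0.03 in males and 0.07 in females, with signs that changed with the scaling. For fibroblast genes 5 of 6 changes were below 0 in males (median -0.41) and 4 of 6 in females (median -0.07). For T and innate lymphoid genes 6 of 7 were above 0 in males (median 0.51) and 1 of 7 in females (median -0.16), and AGED male replicate 1 had the highest mean of that list, at 0.59. AGED male replicates 2, 3 and 4 were at -0.84, -1.61 and -1.22, against -1.52, -1.47, -1.30 and -1.10 in MAT males. No gene of these lists was called. Only Hoxb13 among the male-gland genes and Ovgp1 among the female-tract genes were tested, and neither was called.

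Within groups, the processed signals of the 10 genes did not vary as 1 block. Likeness was measured as Pearson's r, over 16 arrays, between the deviation of a gene from its group means and the mean deviation of the other 9 genes. It was highest for Elf3 (0.82), Foxa1 (0.76), Grhl3 (0.71) and Upk1b (0.63). It was intermediate for Gata3 (0.50), Upk2 (0.49) and Krt20 (0.48), and lowest for Upk1a (0.20), Upk3b (0.10) and Upk3a (0.05). The arrays with the highest mean deviation of the 10 genes were MAT male replicate 2 (0.23) and MAT female replicate 4 (0.20), and the lowest was MAT male replicate 4 (-0.23). Over all genes tested with a symbol, the closest to the mean deviation of the 10 were Gldc (0.92), Spint1 (0.915), Dap3 (0.89), Liph (0.89), Wipf2 (0.88), Eps8l1 (0.88), Sh3tc2 (0.88), Mtdh (0.88), Cgn (0.87) and Rab3gap1 (0.87). Spint1 encodes a Kunitz-type inhibitor of epithelial serine proteases and Cgn the tight-junction protein cingulin. Of those named, none was called for age, with changes between -0.23 and 0.64. The median r with the 10 genes was 0.59 for general epithelial genes and 0.44 for superficial cell and vesicle genes. For other urothelial regulators it was 0.41, for basal genes 0.30 and for squamous genes 0.05. It was -0.40 for T and innate lymphoid genes, -0.27 for smooth muscle, -0.20 for mesothelial and -0.195 for fibroblast genes, and 0.0008 over all genes. All points share the arrays, their scaling and the group means removed from them.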

How the data were processed

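Gene expression was measured in total RNA of the dissected bladder body, with 1 array per mouse and 4 mice per age and sex, grouped by the labels. Arrays were scanned and extracted by the authors with Feature Extraction (version 9.1 per the labels, 10.7.3.1 per the file headers). The deposited intensity of each spot is the processed signal, which is background-subtracted and corrected for trends across the array. A further table by the authors holds log2 values in which the median of every probe over the arrays is 0. It was set against the scanner values and differed from them by at most 0.0158 in the median of an array, with the same direction. Depth has no counterpart on arrays, and their number limits the precision.

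The 75th percentile of each array was subtracted from the log2 processed signal. Control spots and flagged outliers (399 probe values, 0 of the 10 genes) were left out, and 0 spots were saturated. Of 55681 probes, 36972 were well above background on at least 4 of 16 arrays. Accessions were named through the GRCm38.p6 annotation (26582 probes). A gene was represented by its brightest kept probe. Group means were fitted to all 16 arrays with limma 3.58.1 in R 4.3.3 (12 residual degrees of freedom). Adjusted p-values cover all genes tested. For differences between the age changes, no fold limit was set. The labels name separate mice as samples.

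The 10 genes and the lists were chosen with earlier results of these data known, so no list was tested as a set. Named were all 10 genes, genes of the lists called for age, up to 3 genes of a list with the highest mean signal (a rule on probe brightness, not on transcript abundance), and the 10 genes most alike. Klf5 was named after its values were seen. The procedure was tested on simulated data. Alternatives covered other scaling, background correction, filters, probe rules, tests and arrays left out. Those with normexp started from the median signal of each spot, without the trend correction. Replicate numbers were checked for pairing and are treated in the closing section. The slide could not be used as a block, since it coincides with sex. RT-PCR and functional measurements were not analysed here.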

Additional observations from a re-analysis of the deposited data

Results flagged for a closer look

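Within groups of 4 arrays, a value was marked when its gap to the nearest other array took up more of the range of the group than Dixon's 95% limit, which chance passes in about 1 of 20 groups. Of 40 groups of values for the 10 genes, 3 were marked. Upk1a in AGED female replicate 3, the brightest array, was low after scaling, at 7.03 (gap share 0.91). Upk2 in AGED male replicate 1 was low, at 5.03 (gap share 0.863). Krt20 in AGED male replicate 4 was high, at 4.63 (gap share 0.925). Of 44 groups of list means, 4 were marked. The mean of basal and intermediate urothelium was high in AGED male replicate 4, at 2.49 (gap share 0.932), and low in AGED female replicate 3, at 1.90 (gap share 0.868). Hoxb13, the only male-gland gene tested, was high in MAT female replicate 3, at -1.68 (gap share 0.845). Ovgp1, the only female-tract gene tested, was low in AGED female replicate 4, at -1.53 (gap share 0.844).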

How the results depend on the processing

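None of the 10 genes was called under any alternative, except that without the fold limit 3 were higher in males than in females. Of the single log2 changes, 9 of 370 recomputed values turned sign in the male age comparison, 7 of 370 in the female one and 15 of 340 between the sexes. With quantile normalization, Gata3 in females was -0.014 and the sex difference of Upk1a -0.12. With normexp and quantile normalization, Upk3a was -0.50 and Upk3b -0.40 in males, Gata3 -0.016 in females, and the sex differences of Upk1a, Upk3a and Upk3b were -0.0093, -0.15 and -0.36. With arrays centred on epithelial genes, Gata3 was -0.00096 in males and -0.14 in females, Upk1a -0.075 in females, and the sex differences of Upk1a, Upk1b and Upk3b were -0.069, -0.020 and -0.17. That centring moved the median of all genes by -0.16 in males, -0.20 in females and -0.26 between the sexes. Upk2 in males was then -0.61 (adjusted p = 0.0442 in limma, the lowest of its 37 alternatives), still short of 2-fold. Alternatives added after seeing the data were normexp with the 75th percentile, the signal before the trend correction, and centring on smooth muscle. With the first, which moved the median of all genes by 0.12 in males and 0.10 between the sexes, Upk1a was 0.055, Upk3a -0.35 and Upk3b -0.40 in males, and the sex differences were 0.10 for Upk2 and -0.32 for Upk3b. Before the trend correction they were 0.044, -0.31, -0.39, 0.12 and -0.31 in that order. With smooth muscle centring, which moved the median of all genes by -0.12 between the sexes, the sex difference of Upk3b was -0.026. With 1 array left out, Gata3 in females ranged from -0.020 to 0.13, Grhl3 in females from -0.27 to 0.023, and the sex difference of Upk2 from -0.12 to 0.017. Both normexp alternatives lack the trend correction, as does the signal before it, so their turns are not independent of each other. The cause of the sign turns was not tested.

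The number of all genes called moved more than that of the 10. It was 227 in males and 50 in females, and 1393 and 43 before the trend correction, 840 and 39 with normexp and quantile normalization, 753 and 40 with normexp and the 75th percentile, 547 and 18 with no filter, 256 and 197 with array weights, 14 and 94 with each sex fitted alone, and 0 and 1 with the methods' t-test after Benjamini-Hochberg adjustment (496 and 393 unadjusted). It was 469 and 61 without the fold limit, and 294 and 2 with epithelial centring. With 1 array left out it ranged from 122 (without MAT male replicate 3) to 380 (without AGED male replicate 2) in males, and in females from 1 (without AGED female 2 or 4, or MAT female 1 or 4) to 127 (without AGED male replicate 1). Arrays with the same number did not deviate together (correlations of -0.15 to 0.07). With the number as a replicate block 183 genes were called in males and 3 in females, and 0 of the 10. With 4 arrays a group, the standard errors of the age changes of the 10 genes were 0.12 to 0.23 on the log2 scale.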
